A study of Mus musculus with 6 samples.

Results

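Collagens are the matrix proteins of the triple helix, and each gene described here encodes 1 collagen chain. The members are all genes whose symbol has the form Col, number, a, number and that had at least 60 read pairs summed over the 6 libraries. The rule used a sum over both groups and no comparison between them. It gave 43 genes of 44 collagen symbols and of 54146 gene rows in all. The member with the fewest pairs was Col26a1, with 99, and the symbol left out was Col2a1, the cartilage fibril chain, with 56. By class, 10 members encode fibrillar chains, 6 basement membrane chains, 4 transmembrane chains, 3 short-chain network chains, 6 chains of beaded filaments and 9 chains of the FACIT class, which decorate fibrils. Another 2 encode multiplexins, 1 the anchoring fibril chain and 2 chains outside these classes.

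Messenger RNA was counted in tumors of 4T1 cells, a mouse mammary carcinoma line, that were either wild type or knockout for Mki67 (Mki67-/-), which encodes Ki-67, a protein used to mark dividing cells. Both kinds of cell were injected at their tissue of origin, the mammary fat pad, into nude mice. These hosts have no thymus and few T cells but keep fibroblasts and vessels, and tumors were taken 3 weeks later. There were 3 libraries per genotype, and the comparison asks how the transcripts of the tumors differ with the genotype of the cells. The labels do not give the number of knockout clones, the strain or age of the mice, or whether a library is 1 tumor, so a difference between clones and the knockout cannot be told apart and p-values measure the spread between these libraries. In bulk tumor RNA, fewer cells of a type and less RNA per cell cannot be told apart, nor can chains made by tumor cells and by host cells.

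Fibrillar chains assemble from soluble procollagens into the fibers of connective tissue, and are made mainly by fibroblasts and related stromal cells. Type IV chains form the sheet-like network of basement membranes under epithelia and around vessels, and their genes lie in pairs that start back to back. Transmembrane collagens stay anchored in the cell surface. Procollagen chains are hydroxylated and folded in the endoplasmic reticulum, trimmed outside the cell by proteinases and crosslinked by lysyl oxidases.

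Between 22081970 and 38399826 read pairs were counted in genes in a library, and all values below are counts scaled to the library total (CPM) with TMM scaling unless another scale is named. Unmapped pairs made up 30.8% to 33.9% of all pairs in the wild-type libraries and in knockout replicate 1, and 54.6% and 52.7% in knockout replicates 2 and 3. Of uniquely mapped pairs, 14.2%, 9.91% and 18.9% lay outside exons in knockout replicates 1, 2 and 3, against 9.24% to 11.1% in wild-type libraries. Mki67 itself was at 359.6, 395 and 325 CPM in the wild-type and at 98.7, 117 and 139 CPM in the knockout libraries, the direction of the labels. Of 4 markers of the carcinoma epithelium, Epcam rose 7.70-fold, Cdh1 4.05-fold and Krt18 1.33-fold (edgeR adjusted p = 1.76e-06, 1.42e-05 and 0.00707), and Krt8, at 1397 to 1850.3 CPM, did not pass. Their summed level was 2692 to 2823 CPM in wild-type and 4306 to 4591 CPM in knockout libraries. Replicate libraries were not copies of each other, since the chi-square of their counts per degree of freedom was 8.11 to 69.8.

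All 43 members passed the filter on low counts. Collagen chain genes that passed the test were mostly higher in the knockout tumors: 20 of 43 rose, 2 fell and 21 did not pass the test. These are 46.5% and 4.65% of the members, where 17.6% of all 19900 genes tested were higher and 18.4% were lower, or 36.0% in either direction. The median log2 fold change of the members was 0.74, and that of all genes tested was 0.05. For 23 members each knockout library lay above each wild-type library, and for 3 each lay below, where 24.5% and 26.0% of all genes did so. A change of at least 2-fold was called higher for 11 members and lower for 2, against 9.48% and 5.16% of all genes. By class, 8 of 10 fibrillar genes rose, as did all 3 short-chain network genes and 3 of 4 transmembrane genes. Of the 6 basement membrane genes 2 rose and 2 fell, and of the 18 other genes in the beaded filament, FACIT, anchoring fibril and multiplexin classes 3 rose. Of the 2 unclassed genes 1 rose, Col28a1. Without wild-type replicate 1, 12 members rose and 2 fell, where 19.3% of all genes were called in either direction. When the unmapped share entered the fit, 12 rose and 3 fell, where 27.0% of all genes were called. The 8 calls lost there were those of Col3a1, Col5a1, Col27a1, Col4a1, Col4a2, Col17a1, Col6a2 and Col28a1.

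**Figure D1:**
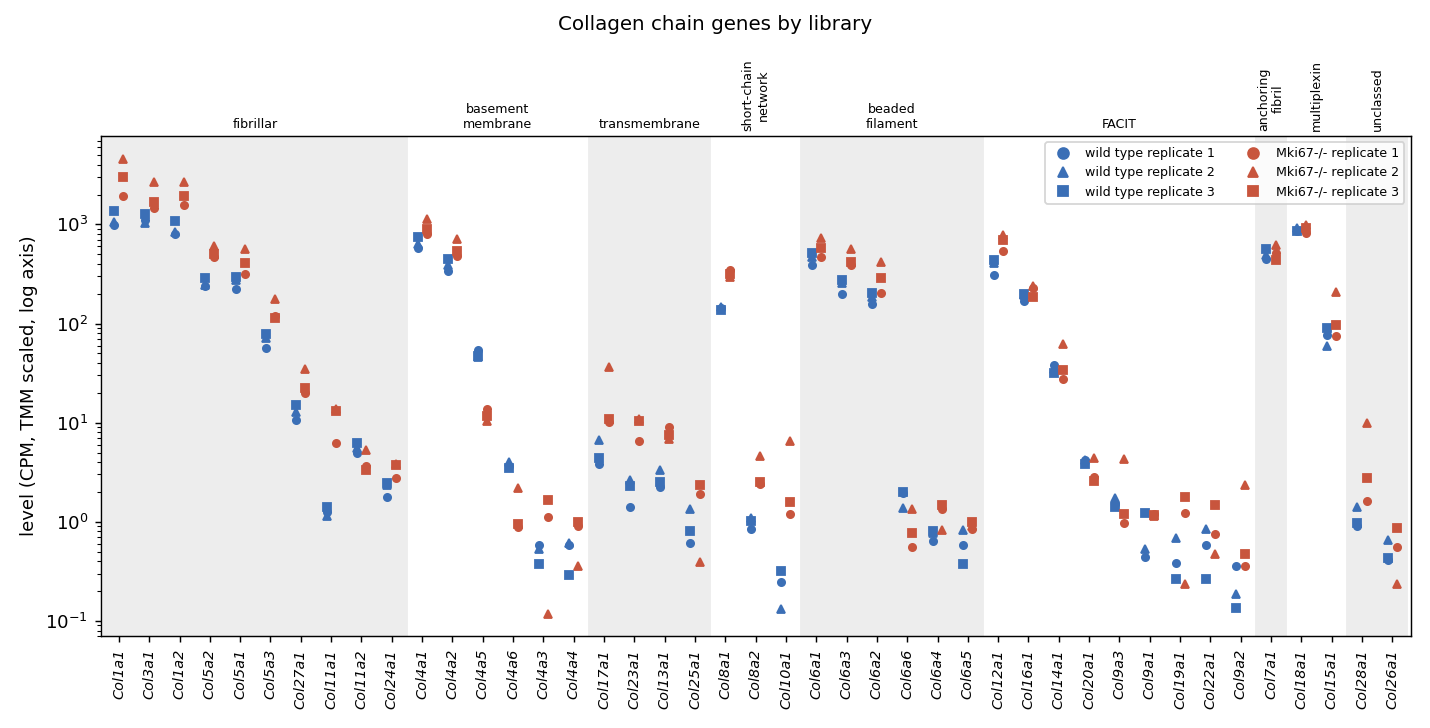
Level of each of the 43 collagen chain genes in each library, in CPM on a log axis, by class and by falling mean level within a class. Wild-type libraries are blue and Mki67-/- libraries red, with 1 marker shape per replicate. Col1a1 is the highest gene in every Mki67-/- library, and Col4a5 lies lower in all 3 Mki67-/- libraries than in any wild-type library.

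**Figure D2:**
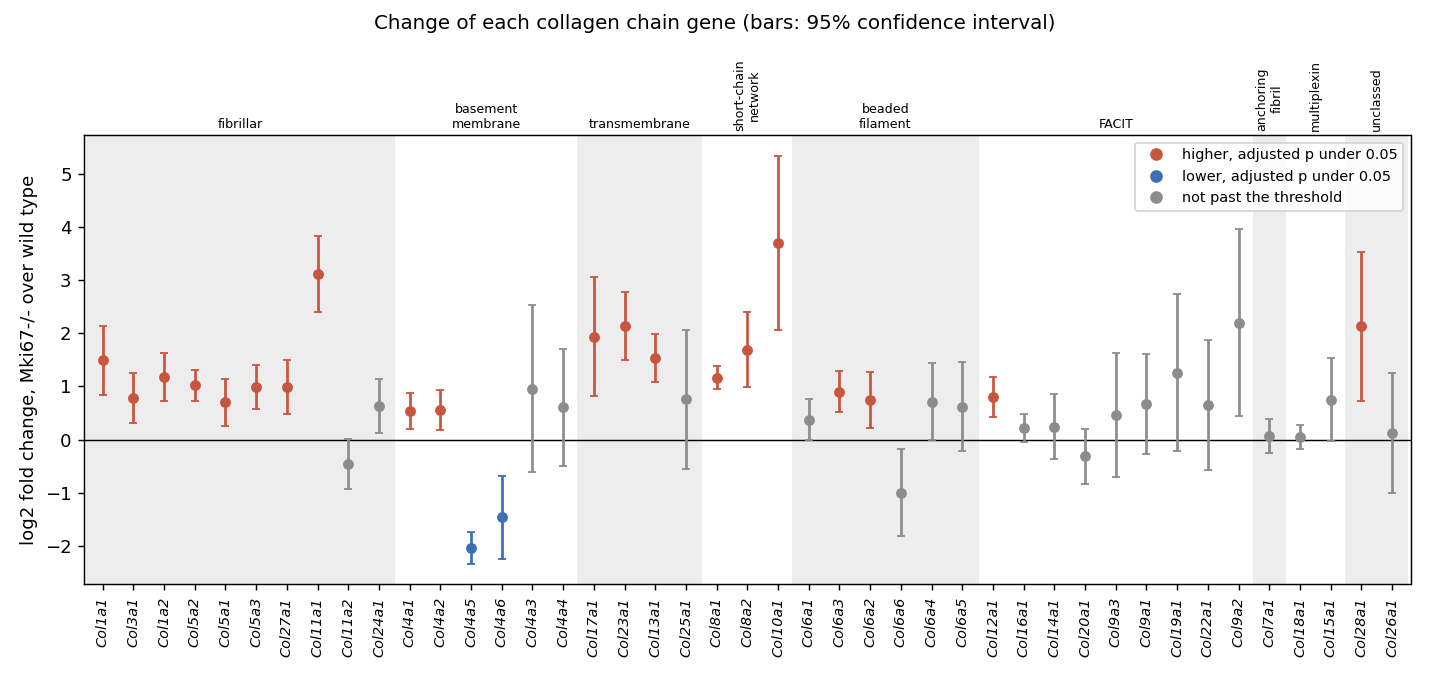
Log2 fold change of each member, Mki67-/- over wild type, with its 95% confidence interval from the edgeR fit; red points are higher and blue points lower at an adjusted p under 0.05, and gray points did not pass. The 2 blue points are Col4a5 at -2.04 and Col4a6 at -1.46, beside Col4a1 and Col4a2, which rose.

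The starts of 5 members are shown here because the results turn on them: the back-to-back type IV pairs Col4a1 with Col4a2, which rose, and Col4a5 with Col4a6, which fell, and Col1a2 of type I collagen. The sequences are RefSeq promoter windows of build GRCm38.p6, 250 bases before to 50 bases after the start, 5′ to 3′ on the strand of the gene, and 35 of the 43 members matched an entry, in 38 windows. Capitals mark matches, on either strand, to the GC box GGGCGG and the CCAAT box CCAAT.
Col4a1, chr8:11312777-11313076, minus strand: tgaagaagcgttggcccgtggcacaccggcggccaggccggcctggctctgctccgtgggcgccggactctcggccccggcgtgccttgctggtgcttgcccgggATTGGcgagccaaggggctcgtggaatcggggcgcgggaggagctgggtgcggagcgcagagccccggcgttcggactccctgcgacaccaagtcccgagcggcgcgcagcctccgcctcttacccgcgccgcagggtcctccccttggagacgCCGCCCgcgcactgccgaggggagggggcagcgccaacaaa
Col4a2, chr8:11312555-11312854, plus strand: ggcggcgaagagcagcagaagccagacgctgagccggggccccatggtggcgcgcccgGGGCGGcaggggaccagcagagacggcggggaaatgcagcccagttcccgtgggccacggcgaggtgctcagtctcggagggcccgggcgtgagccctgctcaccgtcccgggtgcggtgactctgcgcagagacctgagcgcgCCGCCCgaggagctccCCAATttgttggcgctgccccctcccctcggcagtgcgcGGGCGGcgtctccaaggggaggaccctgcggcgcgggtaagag
Col4a5, chrX:141475169-141475468, plus strand: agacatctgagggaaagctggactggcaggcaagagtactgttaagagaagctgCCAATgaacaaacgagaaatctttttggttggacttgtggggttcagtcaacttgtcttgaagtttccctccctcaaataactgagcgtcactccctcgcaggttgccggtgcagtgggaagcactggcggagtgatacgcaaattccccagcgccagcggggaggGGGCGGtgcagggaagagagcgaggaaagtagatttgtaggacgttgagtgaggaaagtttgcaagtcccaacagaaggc
Col4a6, chrX:141474027-141474326, minus strand: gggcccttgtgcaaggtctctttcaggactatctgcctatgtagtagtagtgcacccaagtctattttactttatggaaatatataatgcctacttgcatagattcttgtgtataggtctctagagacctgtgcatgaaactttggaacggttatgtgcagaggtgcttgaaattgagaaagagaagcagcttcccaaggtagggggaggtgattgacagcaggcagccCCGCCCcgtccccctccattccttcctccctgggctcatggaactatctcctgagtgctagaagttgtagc
Col1a2, chr6:4505368-4505667, plus strand: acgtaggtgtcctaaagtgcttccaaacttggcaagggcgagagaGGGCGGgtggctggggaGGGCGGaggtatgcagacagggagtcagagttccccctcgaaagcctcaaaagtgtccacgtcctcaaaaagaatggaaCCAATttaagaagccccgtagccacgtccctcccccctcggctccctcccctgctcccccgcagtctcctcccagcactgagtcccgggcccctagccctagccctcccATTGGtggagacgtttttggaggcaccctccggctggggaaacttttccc
The windows are placed on RefSeq starts, which for Col1a2 and Col4a5 differ from the gene start in GENCODE M21, the source of the gene coordinates given below. By GENCODE M21, the start sites of Col4a1 and Col4a2 lie 21 bases apart on opposite strands, and the windows share 78 bases and 1 GC box match is the same in both. Those of Col4a5 and Col4a6 lie 1309 bases apart, and those of Col4a3 and Col4a4 lie 72 bases apart. The Col4a1 and Col4a2 windows are 74.0% and 73.7% G and C, and the Col4a5 and Col4a6 windows 52.7% and 48.3%. No match overlapped another in the windows shown, and none of them held the TATA box TATAAA. Over the collagen windows, 23 of 38 held the GC box (60.5%, against 35.7% of 32851 windows of the same length), 13 the CCAAT box (34.2% against 37.4%) and 5 the TATA box (13.2% against 13.6%). A match is only a description of these letters.

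Among the fibrillar chains, those of types I, III and V were higher in knockout tumors, together with the low-level Col11a1 and Col27a1. Col1a1, the main chain of type I collagen (GRCm38 chromosome 11, 94936224 to 94953042, plus strand), was at 977, 1051 and 1369 CPM in the 3 wild-type libraries and at 1941, 4615 and 2975 CPM in the 3 knockout libraries. The groups did not overlap, and knockout replicate 2 was the highest. Col1a1 rose 2.81-fold, from 1132 ± 208 to 3177 ± 1349 CPM (mean ± SD, 3 libraries per group), a log2 fold change of 1.49 (adjusted p = 0.00451 by edgeR, SE 0.28). Col1a2, the second chain of type I (GRCm38 chromosome 6, 4504814 to 4541544, plus strand), went from 805, 836 and 1074 CPM to 1563, 2672 and 1911 CPM, a log2 fold change of 1.18 (adjusted p = 0.00264 by edgeR, SE 0.20). Every knockout library lay above every wild-type library here too, in the same order as for Col1a1. Col3a1, the only chain of type III (GRCm38 chromosome 1, 45311538 to 45349706, plus strand), was at 1099, 1032 and 1261 CPM in wild-type and at 1473, 2672 and 1691 CPM in knockout libraries (log2 fold change 0.78, adjusted p = 0.0192 by edgeR, SE 0.21). Knockout replicate 2 was again the highest, and without that library the log2 fold change was 0.44 (adjusted p = 0.0188, range over the alternatives 5.56e-05 to 0.172). Leaving out wild-type replicate 1 ended the call of Col3a1 (adjusted p = 0.0871), and so did leaving out wild-type replicate 2 (adjusted p = 0.0878).

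Type V chains sit inside type I fibrils and limit their width. Col5a2 (GRCm38 chromosome 1, 45374321 to 45503282, minus strand) was at 241, 246 and 288 CPM in wild-type and at 466, 604 and 498 CPM in knockout libraries, and rose 2.02-fold (log2 fold change 1.02, adjusted p = 0.000492 by edgeR, SE 0.12). Its SE was the smallest among the fibrillar genes. Col5a1 was at 223, 274 and 296 CPM and 319, 559 and 409 CPM (log2 fold change 0.70, adjusted p = 0.0243 by edgeR, SE 0.20). Col5a3 was at 56.7, 70.7 and 78.8 CPM and 119.6, 176 and 115 CPM (log2 fold change 0.99, adjusted p = 0.00387 by edgeR, SE 0.18). The groups did not overlap for any of the 3 type V genes. Among them, Col5a1 lost its call without wild-type replicate 1, 2 or 3 (adjusted p = 0.126, 0.0774 and 0.0536) and without knockout replicate 3 (adjusted p = 0.0639). Without knockout replicate 2 its log2 fold change was 0.41.

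Col11a1, a minor fibrillar chain known from cartilage and from activated stroma, was low in wild-type tumors and had 1 of the 2 largest fold changes of the members. It was at 1.24, 1.14 and 1.42 CPM in wild-type and at 6.21, 13.7 and 13.1 CPM in knockout libraries, a rise of 8.64-fold (log2 fold change 3.11, adjusted p = 0.000166 by edgeR, SE 0.31). When the unmapped share entered the fit, the log2 fold change of Col1a1 was 0.86 and that of Col11a1 was 2.39. Its partner in type XI collagen, Col11a2, did not pass, and was at 5.00, 5.61 and 6.23 CPM and 3.64, 5.29 and 3.36 CPM (log2 fold change -0.45, 95% confidence interval -0.93 to 0.02, edgeR adjusted p = 0.120). Without knockout replicate 2, Col11a2 was called lower (adjusted p = 0.0117, range over the alternatives 0.0117 to 0.579). Col27a1, a cartilage-associated chain, was at 10.7, 12.9 and 15.1 CPM and 19.7, 35.1 and 22.2 CPM (log2 fold change 0.99, adjusted p = 0.00986 by edgeR, SE 0.22), and leaving out wild-type replicate 1 ended the call (adjusted p = 0.0605). Without knockout replicate 2 the log2 fold change of Col27a1 was 0.65. Col24a1 lay between 1.77 and 3.79 CPM over the 6 libraries. Its knockout libraries all lay above the wild-type ones, but it did not pass (edgeR adjusted p = 0.0539).

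The cartilage and bone markers Acan, Matn1, Bglap and Sp7 were each at most 0.371 CPM in every library, and Sp7 was at 0 in 1 of them. The summed level of these and Comp was 0.615 to 1.17 CPM in wild-type and 1.07 to 1.63 CPM in knockout libraries. The marker lists that follow are set beside the 17.6% of all genes tested that were higher and the 18.4% that were lower. Fibroblast markers rose for 6 of 7, and Pdgfra, a fibroblast receptor, fell. Their summed level was 386 to 434 CPM in wild-type libraries and 545, 795 and 567 CPM in knockout replicates 1, 2 and 3. Pericyte and smooth muscle markers rose for 4 of 6, with a summed level of 139 to 175 CPM in wild-type and 311, 560.3 and 393 CPM in knockout libraries. Adipocyte markers rose for 5 of 5, with a summed level of 50.2 to 85.0 CPM in wild-type and 189, 471 and 236 CPM in knockout libraries. Skeletal muscle markers rose for 4 of 5, with a summed level of 40.9 to 49.6 CPM in wild-type and 53.0, 65.5 and 69.4 CPM in knockout libraries. The fibroblast, pericyte and adipocyte lists were highest in knockout replicate 2, as were 28 of the 43 collagen genes over all 6 libraries, where 27.8% of all genes tested were highest there. The part of these cell types in the collagen values was not tested.

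Seen as a sum, the 43 genes took a larger part of the tumor RNA in the knockout group. Collagen counts made up 0.703%, 0.768% and 0.873% of all gene counts in the wild-type libraries, against 1.08%, 1.83% and 1.38% in knockout replicates 1, 2 and 3. The summed level went from 7985 ± 896 CPM in wild-type to 14057 ± 3759 CPM in knockout tumors (mean ± SD over 3 libraries), a ratio of 1.76, or 1.50 without knockout replicate 2. Fibrillar genes carried most of this difference, from 3781 ± 532 CPM in wild-type to 8303 ± 2781 CPM in knockout tumors (mean ± SD over 3 libraries), a ratio of 2.20, or 1.79 without knockout replicate 2. Of all collagen counts, fibrillar genes held 47.5%, 45.3% and 49.0% in wild-type and 54.4%, 62.4% and 58.3% in knockout libraries. The share of multiplexins was 10.5 to 13.0% in wild-type and 6.57 to 8.22% in knockout libraries. The anchoring fibril gene held 6.23 to 6.32% in wild-type and 3.36 to 4.72% in knockout libraries. Such sums and shares are given as a description with no test, since a share falls when another class rises.

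**Figure D3:**
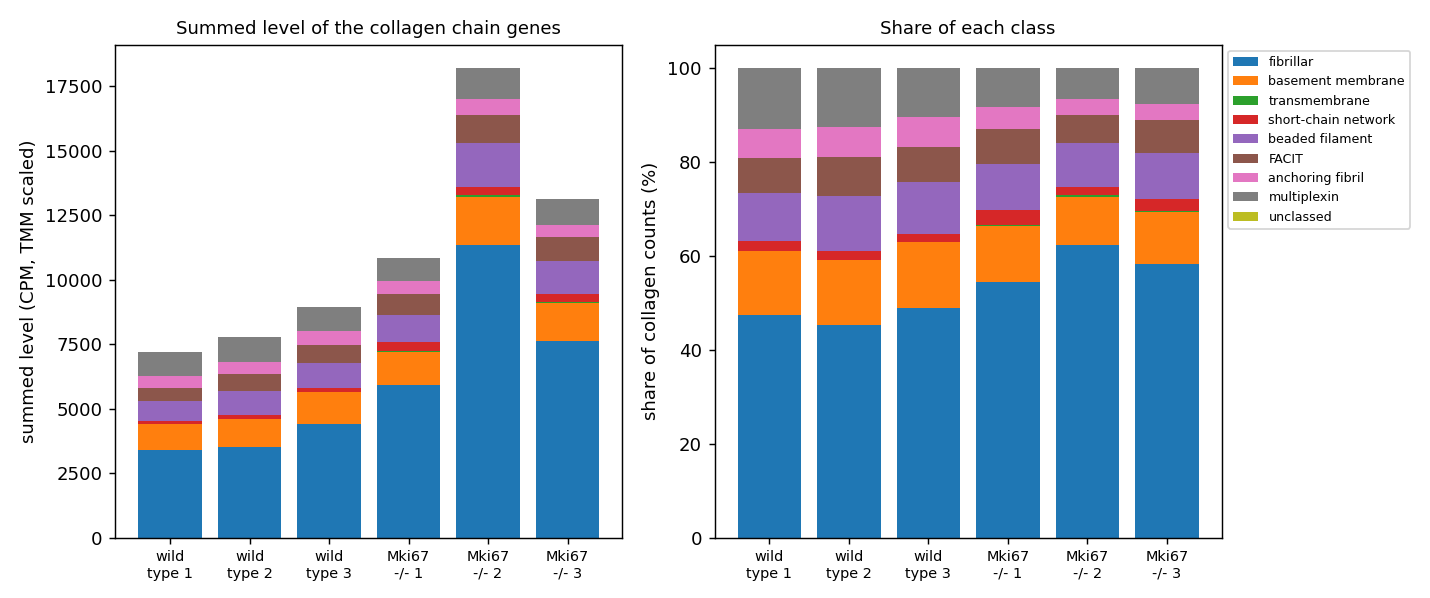
Left, summed level of the 43 collagen chain genes in each library in CPM, stacked by class. Right, share of each class among all collagen counts of a library in percent. The bars of the Mki67-/- libraries are taller, with replicate 2 the tallest, and the fibrillar share is 54.4% to 62.4% against 45.3% to 49.0% in wild-type libraries. Transmembrane and unclassed genes are too low to see.

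Levels of different genes can be set side by side only per length, here as reads per kilobase of exon scaled to the library (RPKM), given as mean ± SD over 3 libraries per group. Col1a1 was first in both groups, at 172 ± 31.8 and 484 ± 206 RPKM in wild-type and knockout tumors. Col18a1 was second in wild-type and the fifth in knockout tumors, at 125 ± 5.28 and 129 ± 12.1 RPKM. Col1a2 went the other way, from the sixth to the third, at 72.9 ± 11.8 and 165 ± 45.6 RPKM. Col3a1 was at 115 ± 11.98 and 198 ± 65.1 RPKM and Col6a1 at 104 ± 14.4 and 134 ± 29.4 RPKM. Neighbors in this order mostly did not differ beyond their spread, such as Col18a1 and Col3a1, or Col3a1 and Col6a1, in wild-type tumors. Exon lengths join all annotated transcripts, so a gene with long extra transcripts in the annotation can be given too low a level. The union held 12426 bases for Col1a2 and 6563 for Col1a1.

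Basement membrane chains split into pairs that moved in opposite directions. Col4a1 and Col4a2 make the common type IV network, and Col4a1 (GRCm38 chromosome 8, 11198423 to 11312826, minus strand) was at 572, 629 and 745 CPM in wild-type and 801, 1127 and 904 CPM in knockout libraries. Col4a2 (GRCm38 chromosome 8, 11312805 to 11449287, plus strand) was at 341, 393 and 451 CPM and 477, 718 and 543 CPM. Both rose, and both were highest in knockout replicate 2. The log2 fold changes were close, at 0.54 for Col4a1 (adjusted p = 0.0226 by edgeR, SE 0.15) and 0.55 for Col4a2 (adjusted p = 0.0300 by edgeR, SE 0.16). Both calls were lost without wild-type replicate 1 or 2 or knockout replicate 2 or 3, with an adjusted p of 0.0549 to 0.134 for Col4a1 and 0.0668 to 0.161 for Col4a2. Over all alternatives the adjusted p ranged over 0.00283 to 0.167 and 0.00544 to 0.234, and without knockout replicate 2 the log2 fold changes were 0.35 and 0.32.

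Col4a5 and Col4a6, the X-linked pair of chains found in specialized basement membranes, fell. Col4a5 (GRCm38 chromosome X, 141475385 to 141689234, plus strand) was at 54.3, 46.2 and 47.1 CPM in the wild-type libraries and at 13.9, 10.5 and 11.6 CPM in the knockout libraries. On average this was a 4.10-fold lower level (log2 fold change -2.04, adjusted p = 1.68e-05 by edgeR, SE 0.13). The knockout libraries lay close together, far below the wild-type ones, and Col4a5 stayed past the threshold in all 18 alternatives, with a log2 fold change of -2.17 to -1.86. Col4a6 (GRCm38 chromosome X, 141165403 to 141474076, minus strand) was at 3.62, 4.00 and 3.47 CPM and 0.878, 2.21 and 0.947 CPM, a log2 fold change of -1.46 (adjusted p = 0.0114 by edgeR, SE 0.34). Knockout replicate 2 was the highest of its knockout libraries but still below the wild-type ones, and without it the log2 fold change of Col4a6 was -2.06. When the share of pairs outside exons entered the fit, the call of Col4a6 was lost (adjusted p = 0.0586, range over the alternatives 1.25e-05 to 0.0586).

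Col4a3 and Col4a4, the chains known from the kidney filter, were near the limit of detection and did not pass. Col4a3 was at 0.580, 0.530 and 0.374 CPM and 1.11, 0.119 and 1.68 CPM (edgeR adjusted p = 0.306), and Col4a4 at 0.580, 0.609 and 0.294 CPM and 0.911, 0.356 and 0.990 CPM (edgeR adjusted p = 0.352). A count of 0 in these libraries allows 0.0781 to 0.136 CPM, by counting error alone and on library totals without TMM scaling. In both genes knockout replicate 2 was lowest among the knockout libraries and replicates 1 and 3 were above all wild-type libraries. Endothelial cells also make type IV chains, and of 5 endothelial markers 1 rose, Emcn, and 4 did not pass, where 17.6% of all genes tested were higher. The summed level of the 5 markers was 184 to 254 CPM in wild-type and 172 to 241 CPM in knockout libraries.

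**Figure D4:**
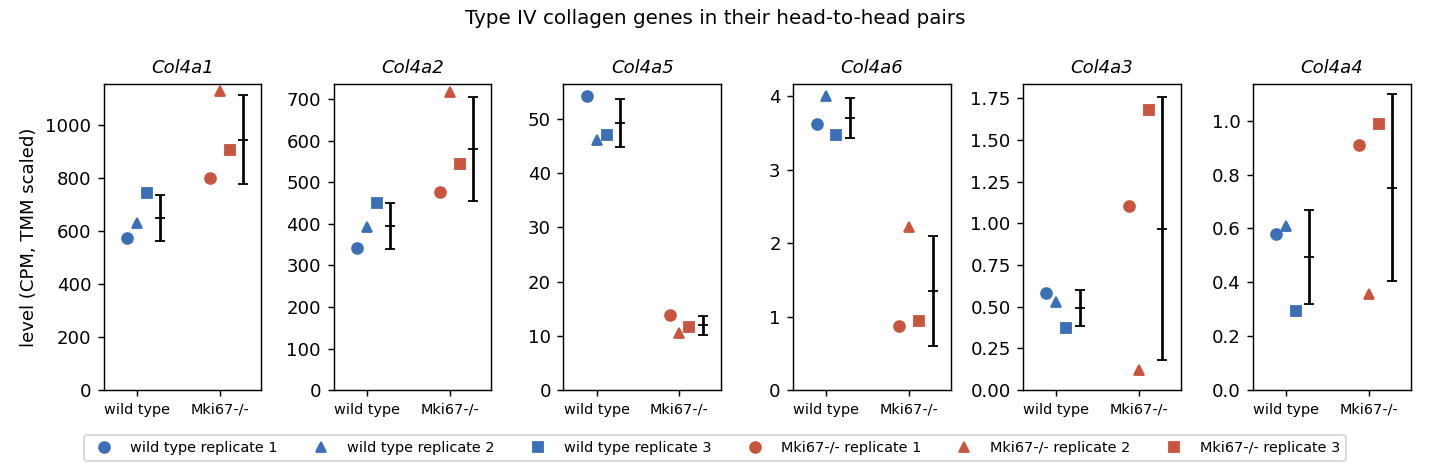
Level in CPM of the 6 type IV collagen genes, 1 point per library, with the mean and SD of each group in black; each axis starts at 0 and has its own scale. Col4a1 and Col4a2 lie higher in the Mki67-/- libraries, Col4a5 and Col4a6 lower, and Col4a3 and Col4a4 overlap.

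Of the 4 transmembrane collagens 3 rose, from low levels. Col17a1 encodes the hemidesmosome collagen that ties basal epithelial cells to the basement membrane (GRCm38 chromosome 19, 47646344 to 47692094, minus strand). It was at 3.84, 6.73 and 4.41 CPM in wild-type and 10.2, 36.5 and 10.8 CPM in knockout libraries, with knockout replicate 2 far above the others. Its log2 fold change was 1.94 (adjusted p = 0.0155 by edgeR, SE 0.49), and 1.03 without knockout replicate 2 (adjusted p = 0.00611, range over the alternatives 1.56e-20 to 0.161). Leaving out wild-type replicate 1 ended the call of Col17a1 (adjusted p = 0.0681), as did leaving out wild-type replicate 3 (adjusted p = 0.0660). Genes listed as keratinocyte markers rose for 6 of 6. Their summed level was 70.3 to 120.0 CPM in wild-type libraries and 948, 1518 and 724 CPM in knockout replicates 1, 2 and 3. Most of the knockout sum was Krt14, at 815, 1008.7 and 630 CPM in those replicates. Which cells made these transcripts, and their part in the level of Col17a1, was not tested. The late keratinocyte marker Krt1 was at 6.16, 17.5 and 11.97 CPM in wild-type and 34.0, 183 and 19.2 CPM in knockout libraries. Krt10 was at 14.5, 23.6 and 17.2 CPM and 36.3, 146 and 19.96 CPM, with overlapping groups. Like Col17a1, both were highest in knockout replicate 2, and so were Krt5, Krt14 and Dsg1a of the same list. Trp63, also on the list, was highest in knockout replicate 1, at 18.9, 18.4 and 15.1 CPM in replicates 1, 2 and 3.

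Col13a1, found at cell-matrix contacts and at the neuromuscular junction, was at 2.26, 3.31 and 2.54 CPM in wild-type and 9.01, 6.83 and 7.57 CPM in knockout libraries. It rose by 1.53 on the log2 scale (adjusted p = 0.000660 by edgeR, SE 0.20). Col23a1, a surface collagen of epithelial cells, was at 1.41, 2.62 and 2.30 CPM and 6.60, 10.9 and 10.4 CPM, and rose by 2.13 (adjusted p = 0.000673 by edgeR, SE 0.28). For both genes the knockout libraries lay well above the wild-type ones, knockout replicate 2 was not set apart, and the call was kept in all 18 alternatives. Col25a1, a collagen known from neurons, was at 0.395 to 2.37 CPM over the 6 libraries and did not pass (edgeR adjusted p = 0.328).

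The 3 short-chain collagens rose. Col8a1, a chain of the hexagonal network beneath endothelium and in vessel walls (GRCm38 chromosome 16, 57624258 to 57754737, minus strand), was at 142, 148 and 138 CPM in wild-type and 346, 297 and 318 CPM in knockout libraries. It rose 2.25-fold, from 143 ± 5.30 to 320.1 ± 24.7 CPM (mean ± SD, 3 libraries per group) (log2 fold change 1.17, adjusted p = 4.40e-05 by edgeR, SE 0.09). This was the smallest SE of all 43 members, the libraries of a group lay close together, and knockout replicate 1 rather than 2 was the highest. Its partner Col8a2 was at 0.856, 1.09 and 1.02 CPM and 2.41, 4.62 and 2.54 CPM (log2 fold change 1.69, adjusted p = 0.00369 by edgeR, SE 0.31). Col10a1, the chain of growth plate cartilage, was at 0.248, 0.132 and 0.321 CPM and 1.20, 6.48 and 1.59 CPM (log2 fold change 3.70, adjusted p = 0.00490 by edgeR, SE 0.72). Its wild-type libraries held 5 to 12 read pairs each, and without knockout replicate 2, the highest library, its log2 fold change was 2.51 (adjusted p = 0.00133, range over the alternatives 1.63e-17 to 0.0377).

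Type VI chains form beaded filaments around cells, and 2 of 6 rose. Col6a3, the longest of the common chains, was at 199, 258 and 276 CPM in wild-type and 388, 562 and 418 CPM in knockout libraries (log2 fold change 0.90, adjusted p = 0.00422 by edgeR, SE 0.17). Col6a2 was at 156, 183 and 204 CPM and 204, 416 and 288 CPM (log2 fold change 0.74, adjusted p = 0.0350 by edgeR, SE 0.23). For Col6a2 the lowest knockout library lay just above the highest wild-type one, and leaving out any 1 library except knockout replicate 1 ended the call, with an adjusted p of 0.0654 to 0.152 and a log2 fold change of 0.39 without knockout replicate 2. Col6a1, the third common chain, was at 386, 469.9 and 509 CPM and 466, 722 and 576 CPM, with overlapping groups, and did not pass (log2 fold change 0.37, 95% confidence interval -0.01 to 0.75, edgeR adjusted p = 0.118). Col6a4, Col6a5 and Col6a6, neighbors on chromosome 9, were at 0.374 to 2.004 CPM over the 6 libraries and did not pass. Col6a6 lay lower in each knockout library than in each wild-type library (log2 fold change -0.999, edgeR adjusted p = 0.0587), and passed as lower in 6 of the 18 alternatives, DESeq2 among them (adjusted p = 0.0488, range over the alternatives 0.00591 to 0.290).

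Of the 9 FACIT genes 1 rose. Col12a1, a fibril-associated chain of dense connective tissue, was at 312, 409 and 435 CPM in wild-type and 545, 774 and 691 CPM in knockout libraries. It rose from 385 ± 64.7 to 669.8 ± 116 CPM (mean ± SD, 3 libraries per group) (log2 fold change 0.80, adjusted p = 0.00617 by edgeR, SE 0.16). Col16a1 was at 169 to 241 CPM and Col14a1, a chain of fibroblast-rich tissue, at 27.4 to 62.3 CPM, with overlapping groups, and neither passed (edgeR adjusted p = 0.180 and 0.496). The other 6, Col9a1, Col9a2, Col9a3, Col19a1, Col20a1 and Col22a1, were at 0.134 to 4.38 CPM and did not pass, with an edgeR adjusted p of 0.0544 to 0.504. Col9a2, a cartilage chain, was at 0.359, 0.185 and 0.134 CPM and 0.358, 2.33 and 0.473 CPM, with knockout replicate 2 far above the other libraries. It passed as higher in 4 alternatives, DESeq2 among them (adjusted p = 0.0196, range over the alternatives 0.000313 to 0.587).

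Col7a1, the anchoring fibril chain of skin and other stratified epithelia, and Col18a1, the source of endostatin, were among the 10 most abundant members and did not pass. Col7a1 was at 449, 488 and 567 CPM in wild-type and 513, 620.4 and 440.0 CPM in knockout libraries (log2 fold change 0.07, 95% confidence interval -0.26 to 0.39, edgeR adjusted p = 0.744). Col18a1 was at 857, 918 and 851 CPM and 819, 988 and 911 CPM (log2 fold change 0.05, 95% confidence interval -0.18 to 0.28, edgeR adjusted p = 0.723). The groups overlapped in both genes, and the interval of Col18a1 was among the narrowest of the members. The other multiplexin, Col15a1, was at 77.1, 59.1 and 89.4 CPM and 74.5, 208 and 96.5 CPM, where knockout replicate 2 alone stood above the wild-type range by a wide margin (edgeR adjusted p = 0.119). Col28a1, a chain known from peripheral nerve, was at 0.911, 1.40 and 0.962 CPM and 1.63, 10.0 and 2.80 CPM (log2 fold change 2.13, adjusted p = 0.0266 by edgeR, SE 0.62). Without knockout replicate 2 the log2 fold change of Col28a1 was 0.95, and leaving out wild-type replicate 1, 2 or 3 ended the call (adjusted p = 0.0960, 0.0571 and 0.0967). The Schwann cell marker Sox10 was at 0.331, 0.450 and 0.695 CPM in wild-type and 0.520, 4.98 and 0.947 CPM in knockout libraries and did not pass (edgeR adjusted p = 0.0645), and its part in Col28a1 was not tested. Col26a1 was at 0.237 to 0.860 CPM and did not pass (edgeR adjusted p = 0.861).

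Among low-level members, 7 had the same order over the knockout libraries: Col19a1, Col22a1, Col4a3, Col4a4, Col6a4, Col25a1 and Col26a1 were each highest in knockout replicate 3, next in replicate 1 and lowest in replicate 2. The share of pairs outside exons had that order too, at 14.2%, 9.91% and 18.9% in knockout replicates 1, 2 and 3. These genes were picked for their order after its values were seen, and the part of that share in their levels was not tested. How many of all genes had that order was not counted, so the 7 do not show an excess of it among the members. Col19a1, for example, was at 1.24, 0.237 and 1.76 CPM in the same 3 libraries. None of the 7 passed the edgeR test with all libraries. Without knockout replicate 2, the lowest knockout library for each, 4 were called higher, namely Col4a3, Col19a1, Col25a1 and Col6a4 (edgeR adjusted p = 0.0100, 0.0104, 0.0230 and 0.0336). Since the 7 were picked with that library lowest, leaving it out raises their knockout mean by the choice itself. In the same fit 4648 of 22016 genes tested were higher. Over the alternatives, the adjusted p of the 4 collagen genes ranged over 0.0100 to 0.780, 0.0104 to 0.780, 0.0230 to 0.735 and 0.0336 to 0.510.

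Ratios between 2 chains in the same library do not depend on library size, and 12 pairs were compared on the per-kilobase scale. Of these, 11 share a collagen type, a fibril or a start, and Col4a5 to Col4a1 sets a chain that fell against a type IV chain of another trimer that rose. With 3 libraries against 3 the exact permutation test cannot give a p under 0.1, or an adjusted p under 0.2 here, so none of the 12 could pass. The log2 ratio of Col4a1 to Col4a2 was 0.57, 0.51 and 0.55 in wild-type and 0.57, 0.48 and 0.56 in knockout libraries, a difference of -0.01 (exact permutation p = 0.8, two-sided, adjusted p = 0.873). The libraries of both groups lay close together and overlapped. Col1a1 to Col1a2 was at 1.20, 1.25 and 1.27 and 1.23, 1.71 and 1.56, with overlapping groups and a difference of 0.26 (exact permutation p = 0.3, adjusted p = 0.4). Col3a1 to Col1a1 was at -0.41, -0.61 and -0.70 and -0.98, -1.37 and -1.40, lower in each knockout library than in each wild-type library (exact permutation p = 0.1, adjusted p = 0.2).

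For 6 of the 12 pairs the groups did not overlap, each with the smallest p that the test can give. Among single genes tested, 24.5% lay above and 26.0% below in the knockout group with no overlap. No such share was counted for ratios between genes, and several of the pairs share a gene. So that count has no matching background. Col4a5 to Col4a1, chosen with both directions known, was at -3.24, -3.62 and -3.83 in wild-type and -5.70, -6.60 and -6.14 in knockout libraries. Col11a1 to Col5a1 followed, at -8.07, -8.50 and -8.29 and -6.27, -5.94 and -5.55. Col6a3 to Col6a1 differed by 0.54 and Col5a3 to Col5a1 by 0.31, higher in the knockout libraries, and Col6a1 to Col6a2 by -0.33, lower in the knockout libraries. The groups overlapped for Col5a1 to Col5a2, Col8a1 to Col8a2, Col4a3 to Col4a4 and Col4a5 to Col4a6. In the pair of the fallen genes, Col4a5 to Col4a6, the log2 ratio was 4.16, 3.78 and 4.01 and 4.23, 2.49 and 3.86, with knockout replicate 2 apart.

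**Figure D5:**
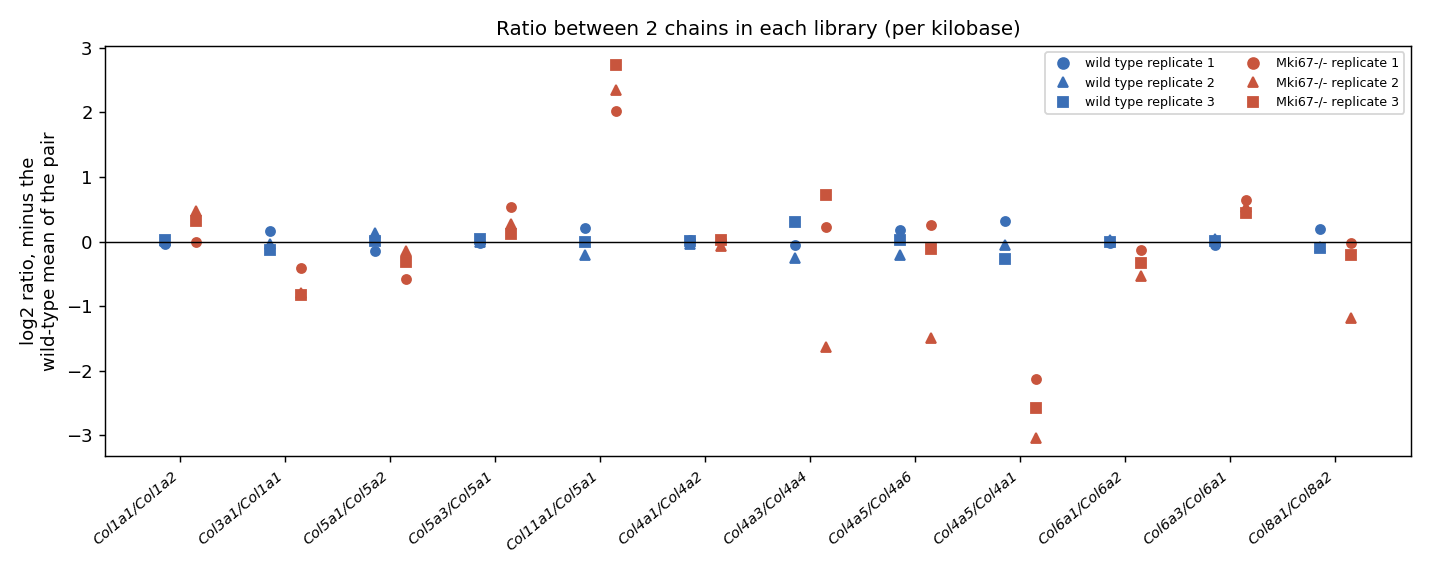
Log2 ratio of the per-kilobase levels of 2 collagen genes in each library, minus the wild-type mean of that pair; 1 point per library. The Col4a1/Col4a2 points of all 6 libraries lie together near 0, and the Col4a5/Col4a1 points of the Mki67-/- libraries lie lowest.

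The pathway lists are set beside the 17.6% of all genes tested that were higher, the 18.4% that were lower and the 36.0% called in either direction, and changes are on the log2 scale of the fit. Of 15 genes of hydroxylation and glycosylation, 3 rose, 3 fell and 9 did not pass, shares near those of all genes, with a median log2 fold change of -0.03. P4ha3, a prolyl 4-hydroxylase subunit, rose by 1.29 (adjusted p = 0.00109 by edgeR, SE 0.19), P4hb, its shared partner subunit, by 0.43 (adjusted p = 0.00535 by edgeR, SE 0.09) and P3h2, a prolyl 3-hydroxylase, by 0.82 (adjusted p = 0.0127 by edgeR, SE 0.20). The related subunit genes P4ha1 and P4ha2 fell by 0.53 and 0.54, and Ppib, a proline isomerase of the endoplasmic reticulum, by 0.45 (edgeR adjusted p = 0.00367, 0.0112 and 0.0125). P4ha1 was at 318, 269 and 316 CPM in wild-type and 206, 202 and 217 CPM in knockout libraries, so the groups did not overlap. Of 10 genes of folding and export, 3 rose, 3 fell and 4 did not pass, against 17.6% higher and 18.4% lower among all genes. Creb3l1, a transcription factor of secretory cells, rose by 1.59, Fkbp10, a collagen chaperone, by 1.30 and Sparc, a collagen-binding protein, by 0.54 (edgeR adjusted p = 0.00238, 0.00119 and 0.0295). The coat genes Sec24d and Sec23a, which carry cargo out of the endoplasmic reticulum, fell by 0.67 and 0.48, and the ion channel gene Tmem38b by 0.62 (edgeR adjusted p = 0.000649, 0.00469 and 0.0227). Serpinh1, the collagen-specific chaperone, was at 717, 650.1 and 733 CPM and 585, 625 and 569 CPM and did not pass (edgeR adjusted p = 0.0757).

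Outside the cell, 3 of 8 propeptide-processing genes rose and 1 fell, against 36.0% of all genes called in either direction. Bmp1, which cuts the C-propeptide of fibrillar chains, was at 579.9, 631 and 660.1 CPM in wild-type and 952, 1331 and 1056 CPM in knockout libraries, and rose by 0.84 (adjusted p = 0.00198 by edgeR, SE 0.13). Adamts2, which cuts the N-propeptide, rose by 0.91 and Pcolce, the enhancer of Bmp1, by 0.40 (edgeR adjusted p = 0.00259 and 0.0401). Adamts14, a relative of Adamts2, fell by 1.21 (edgeR adjusted p = 0.000181). All 5 lysyl oxidase genes changed, against the same 36.0%. Loxl1, Lox and Loxl2 rose by 1.73, 1.23 and 1.15, and Loxl4 and Loxl3 fell by 1.56 and 0.66 (edgeR adjusted p = 0.00201, 0.000993, 0.000491, 3.96e-05 and 0.00641). Loxl1 was at 32.7, 34.8 and 42.5 CPM and 74.9, 179 and 111 CPM, with knockout replicate 2 the highest, as for Col1a1.

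Of 9 collagen receptor genes tested, 4 rose, 3 fell and 2 did not pass, against 17.6% higher and 18.4% lower among all genes. Gp6, the platelet receptor, was too low to test. Itga2 and Ddr1, collagen receptors of epithelial cells, rose by 1.24 and 0.78, Itga11, an integrin of fibroblasts, by 1.92 and Mrc2, an uptake receptor, by 0.68 (edgeR adjusted p = 2.44e-05, 0.000702, 0.00430 and 0.0494). Itga10, an integrin known from cartilage, fell by 2.40, Ddr2, a receptor of mesenchymal cells, by 1.48 and Lair1, an inhibitory receptor of immune cells, by 1.22 (edgeR adjusted p = 2.79e-05, 8.42e-05 and 0.000681). Ddr2 was at 223, 211 and 206 CPM in wild-type and 64.5, 92.0 and 72.6 CPM in knockout libraries, and Ddr1 at 62.5, 69.3 and 73.7 CPM and 107, 128 and 117 CPM. The groups did not overlap for either receptor, and the 2 moved in opposite directions. All 4 macrophage markers were lower, with a summed level of 3576 to 4334 CPM in wild-type and 443 to 497 CPM in knockout libraries. Most of that sum was Lyz2, which fell by 3.46 on the log2 scale, while Adgre1, Cd68 and Csf1r fell by 1.74, 1.34 and 1.24. The part of these markers in the level of Lair1 was not tested. Nor was that of the epithelial markers, of which Epcam, Cdh1 and Krt18 rose, in the levels of Itga2 and Ddr1.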

How the data were processed

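The deposited tables hold unnormalized counts of read pairs per gene, 1 table per library, whole numbers in the layout of STAR's gene counts. The submitters' processing notes name STAR 2.6.0c, FastQC, DESeq2 and GRCm38, and the annotation is not given in the sources used here. The unstranded column was used, since both stranded columns held equal shares (50.1% to 50.2% in the first). Antisense reads cannot be separated, and exons shared with other genes covered at most 6.07% of a member. Symbols came from GENCODE M21 of the same build (54079 of 54146 rows matched). The 4 rows that name no gene were left out. Their unmapped pairs are given in the report.

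The test was edgeR 4.0.16's quasi-likelihood F test (R 4.3.3), after filterByExpr and TMM, with Benjamini-Hochberg adjustment over 19900 genes and a threshold of 0.05. SE is the absolute log2 fold change over the square root of F. The scripts were tested on simulated data. Partner-chain ratios were tested by exact permutation over libraries. The members and lists were chosen with earlier results of these data known. Values in every library are given for members past the threshold and for the 10 most abundant members, and up to 4 genes per direction with the smallest p are named in each pathway list. Serpinh1 and the marker genes named were picked after their values were seen. Some marker genes are not reported here. The 18 alternatives were DESeq2 1.42.0, RLE factors, library totals, no filter and a stricter one, a stranded column, a robust fit, a replicate block, libraries under 40% unmapped, a covariate (unmapped share, or share outside exons), removal of mitochondrial and the 20 most abundant genes, and each of the 6 libraries left out.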

Additional observations from a re-analysis of the deposited data

How the results depend on the processing

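Of the 22 called members, 13 stayed past the threshold in all alternatives that gave a value: Col1a1, Col1a2, Col5a2, Col5a3, Col11a1, Col4a5, Col8a1, Col8a2, Col10a1, Col6a3, Col12a1, Col13a1 and Col23a1. Leaving out 1 library gave 12 to 24 collagen genes higher and 2 to 5 lower, and 1821 to 4648 genes higher and 2257 to 4778 lower among all genes. With the unmapped share as a covariate, 12 collagen genes and 2333 of all genes were higher. When the share outside exons entered the fit, 1 collagen gene and 2238 of all genes were lower. The 4 libraries under 40% unmapped hold a lone knockout library, assumed to vary like the wild-type ones. The adjusted p-values of that setting rest on this assumption, and they enter the ranges and counts over the alternatives. Only its log2 fold changes are singled out here, with a median of 0.45 for the members and 0.005 for all genes tested. There the log2 fold change was 0.71 for Col1a1 against 1.49 with all libraries, 0.32 against 0.78 for Col3a1 and 2.23 against 3.11 for Col11a1. It was 0.24 for Col4a1, 0.21 for Col4a2, 0.11 for Col6a2, 0.21 for Col5a1 and 0.51 for Col28a1. With the replicate block, 21 collagen genes were higher and 2 lower, where 33.5% of all genes were called in either direction. The 22 calls of the members were kept there and Col6a1 was gained. Deviations of same-numbered libraries correlated at 0.0529, -0.212 and -0.243 across genes, so the numbers do not show a pairing, and not every library correlated best with its own number.

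Among the members' log2 fold changes, signs turned only for genes that had not passed with all libraries. In libraries under 40% unmapped, the log2 fold change was -0.41 for Col14a1, -0.74 for Col9a3, -0.031 for Col7a1, -0.030 for Col6a1, -0.078 for Col15a1 and -0.16 for Col18a1. With the unmapped share as a covariate it was -0.32 for Col14a1, -0.62 for Col9a3 and -0.082 for Col18a1. When the share outside exons entered the fit it was -0.25 for Col19a1, -0.36 for Col22a1, -0.78 for Col4a3, -0.16 for Col4a4, -0.55 for Col25a1 and -0.88 for Col26a1. Without a filter on low counts it was -0.0087 for Col7a1 and -0.030 for Col18a1. Leaving out 1 library gave -0.23 to 0.46 for Col14a1, -0.57 to 0.82 for Col9a3, -0.12 to 0.18 for Col7a1, -0.063 to 0.11 for Col18a1 and -0.33 to 0.42 for Col26a1. It gave differences in log2 ratio of -0.025 to 0.024 for Col4a1/Col4a2, -0.70 to 0.47 for Col4a3/Col4a4 and -0.81 to 0.064 for Col4a5/Col4a6. The cause was not tested.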
